A study of Mus musculus with 8 samples.

Results

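The genes described here are 50 regulators of the cell division cycle, chosen by name: cyclins, cyclin-dependent kinases (CDKs), their inhibitors, the retinoblastoma family, E2F factors, mitotic kinases and checkpoint proteins. They were looked up in a table of read counts with 12823 rows, one per gene, from mouse acute myeloid leukemia (AML), and all 50 had a row. The table holds 8 libraries in 2 groups of 4. New AML is leukemia from bone marrow progenitors given the MLL-AF9 fusion gene together with GFP by retroviral transduction and grown in sublethally irradiated mice. Aggressive AML is described as the same leukemia after 5 serial transplantations into non-irradiated mice. Both groups therefore carry MLL-AF9 and GFP, both were grown in male wild-type C57BL/6 mice, and RNA came from GFP-positive bone marrow cells. The labels call the libraries biological replicates but do not tie them to single mice, so p-values measure the spread between these libraries. Mice used in the study were 8 to 12 weeks old. Whether the leukemia was 1 clone is not stated, and without a recorded batch or date, batch and group cannot be told apart.

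A cell enters the division cycle in G1, when D cyclins activate CDK4 and CDK6, and then cyclin E with CDK2, to phosphorylate the retinoblastoma family and release E2F factors. INK4 and KIP inhibitors hold these kinases back. Cyclin A, cyclin B and CDK1 then carry the cell through S phase, G2 and mitosis, and many genes of that stage are switched on late by B-MYB, FOXM1 and the MuvB complex. CDK6 is known as a kinase that MLL-fusion leukemias use for growth, and the genes were compared here as 24 G1 regulators, 20 regulators of S phase, G2 and mitosis (S/G2/M) and 6 kinases or cyclins with other roles.

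Total counts ran from 7805544 to 9697777 per library. The labelled cell type had its defining markers: all 12 leukemia markers (such as Kit, Mpo, Elane, Hoxa9 and Meis1) were in the table, with a summed level of 7550 to 8160 CPM (the read count of a gene scaled to a fixed total per library) in new AML and 7330 to 9790 CPM in aggressive AML. In edgeR's quasi-likelihood test, 4 of these 12 were higher in aggressive AML and 2 were lower. Kit, Ctsg, Elane and Meis1 were higher, with log2 fold changes of 0.65, 0.51, 0.52 and 0.45. Itgam and Hoxa10 were lower, with log2 fold changes of -0.61 and -0.59. The overlapping sums therefore do not show that each leukemia marker was alike in the groups. Neutrophil markers summed to 440 to 616 CPM in new AML and 230 to 294 CPM in aggressive AML, and 9 of 12 were lower in aggressive AML in edgeR's quasi-likelihood test. Macrophage markers, of which 7 of 10 had a row, summed to 350 to 449 CPM and 199 to 264 CPM. Erythroid markers (10 of 12 with a row) summed to 28.8 to 103 CPM and 10.7 to 55.0 CPM. B cell markers (4 of 6) summed to 40.2 to 45.4 CPM and 30.6 to 34.0 CPM. NK cell markers (1 of 6, Nkg7) summed to 11.08 to 22.18 CPM and 19.95 to 29.87 CPM. T cell markers (2 of 7, with no row for the Cd3 genes, Cd4 or Cd8a) summed to 5.35 to 9.15 CPM and 8.68 to 21.2 CPM. In edgeR's test, 2 of 6 macrophage, 2 of 7 erythroid and 1 of 2 B cell markers tested were lower in aggressive AML. The 2 T cell markers (Cd5 and Bcl11b) and Nkg7 were higher there. The 4 Y-linked genes looked up held 2315 to 2574 counts per new AML library and 0 in every aggressive AML library. Yet the study describes the aggressive cells as derived from the new ones, and gives male mice for both groups. The RNA came from GFP-positive cells, and whether leukemia cells or other cells made these marker RNAs was not tested. The part of the marker RNAs and of the Y-linked difference in the results below was not tested either. In bulk RNA, fewer cells of a type and less RNA per cell cannot be told apart.

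The promoters of the S/G2/M genes held CCAAT and TTTGAA at a higher share than those of the G1 genes. Windows of 300 bases, from 250 before to 50 after a gene's start, were taken from RefSeq (build GRCm38.p6) and found for 38 of the 50 genes, in 43 windows. The genes without an entry were Ccna2, Ccnd1, Ccnd2, Ccne2, Ccnh, Cdk5, Rb1, E2f4, Wee1, Cdc25c, Aurkb and Foxm1. Each window was searched on both strands for CCAAT, the box bound by NF-Y, for TTTGAA, the cell cycle genes homology region (CHR) through which the MuvB complex acts, and for TTTCCCGC or TTTGGCGC, forms of the E2F motif. Matches of different kinds overlapped in 0 places.

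The 250 bases before the start are shown for 4 genes, with matches to these motifs in capitals (CCAAT on the other strand reads ATTGG, and TTTGAA reads TTCAAA): Mki67, an S/G2/M gene that was lower in aggressive AML; Cdk1, an S/G2/M gene that did not pass the test; Cdc25a, a G1/S driver with an E2F motif; and Rbl2, a G1 brake that was lower in aggressive AML.
Mki67, chr7:135716380-135716629, minus strand: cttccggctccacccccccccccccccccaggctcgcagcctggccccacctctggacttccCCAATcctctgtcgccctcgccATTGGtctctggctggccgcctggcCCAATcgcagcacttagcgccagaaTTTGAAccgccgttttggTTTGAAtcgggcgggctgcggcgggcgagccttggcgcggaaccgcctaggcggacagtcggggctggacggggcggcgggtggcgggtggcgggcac
Cdk1, chr10:69352913-69353162, minus strand: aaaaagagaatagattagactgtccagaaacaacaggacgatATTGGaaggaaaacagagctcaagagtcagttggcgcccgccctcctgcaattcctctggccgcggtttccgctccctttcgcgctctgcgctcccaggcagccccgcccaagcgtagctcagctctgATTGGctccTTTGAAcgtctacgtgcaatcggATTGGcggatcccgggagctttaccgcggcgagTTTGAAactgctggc
Cdc25a, chr9:109875329-109875578, plus strand: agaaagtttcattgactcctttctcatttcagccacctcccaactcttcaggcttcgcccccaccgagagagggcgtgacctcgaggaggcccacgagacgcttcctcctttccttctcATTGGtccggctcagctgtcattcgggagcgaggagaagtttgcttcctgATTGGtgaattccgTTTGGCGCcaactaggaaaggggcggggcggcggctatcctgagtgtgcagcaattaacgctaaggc
Rbl2, chr8:91069807-91070056, plus strand: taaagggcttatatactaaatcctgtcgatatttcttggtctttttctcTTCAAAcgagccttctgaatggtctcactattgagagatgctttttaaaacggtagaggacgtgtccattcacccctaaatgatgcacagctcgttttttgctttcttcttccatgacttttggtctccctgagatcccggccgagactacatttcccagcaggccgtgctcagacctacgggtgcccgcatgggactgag
Positions count back from the start, with -1 the base just before it, and give the first base of a match along the gene's strand. The Mki67 window held CCAAT at -188, -166 and -141, and TTTGAA at -116 and -98. In Cdk1, CCAAT lay at -208, -80 and -48, with TTTGAA at -71 and -15. Cdc25a had CCAAT at -131 and -81 and an E2F motif at -67, and Rbl2 had 1 match, TTTGAA at -201.

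CCAAT was found in 14 of 15 S/G2/M windows (93.3%), in 11 of 24 G1 windows (45.8%) and in 37.4% of all 32851 windows of this length. TTTGAA was found in 10 of 15 S/G2/M windows (66.7%), in 4 of 24 G1 windows (16.7%) and in 17.9% of all windows. CCAAT and TTTGAA stood together in 10 S/G2/M windows (66.7%), 2 G1 windows (8.33%) and 6.95% of all windows. The E2F motif was in 5 of 24 G1 windows (20.8%), 1 of 15 S/G2/M windows (6.67%) and 1.56% of all windows. Other G2/M genes, such as kinesins and centromere proteins, held CCAAT in 66.7% and TTTGAA in 58.3% of 48 windows, with the E2F motif in 2.08%. Other S phase genes held CCAAT in 66.7%, as the other G2/M genes did, TTTGAA in 11.1% and the E2F motif in 27.8% of 36 windows. Other G1 control genes held CCAAT in 26.9%, TTTGAA in 7.69% and the E2F motif in 0 of 26 windows, so the E2F share of the G1 genes described here was not seen in that list. A match describes the letters in a window and does not show that a factor binds there, and windows of 1 gene can share sequence.

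**Figure D1:**
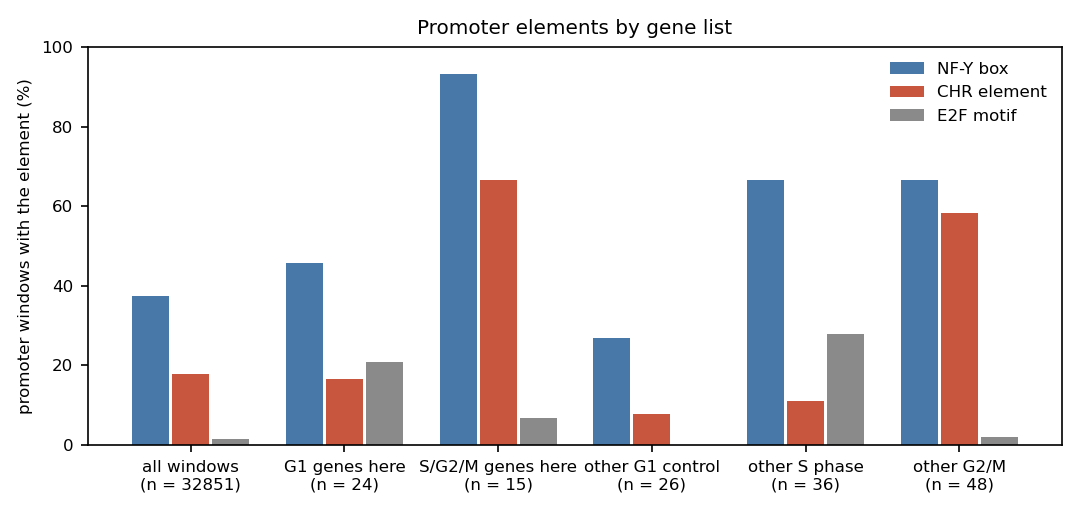
Share of promoter windows (y axis, percent) that hold CCAAT (the NF-Y box), TTTGAA (the CHR element) or an E2F motif, for all windows, the G1 and S/G2/M genes described here, and 3 lists of other cell cycle genes (x axis, n windows). The S/G2/M bars for CCAAT (93.3%) and TTTGAA (66.7%) stand above those of all windows (37.4% and 17.9%).

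In the comparison of aggressive with new AML, 6 of the 50 genes were lower in aggressive AML and 0 were higher. The lower genes were cyclin D3 (Ccnd3), E2f2, Rbl2, Ccng2, Wee1 and Mki67, and their decreases lay between -0.26 and -0.47 on the log2 scale. The test was edgeR's quasi-likelihood test with Benjamini-Hochberg adjustment over 12494 genes and a threshold of 0.05 on the adjusted p. Among all genes tested 10.2% were lower and 8.15% higher, 18.4% in either direction, so 12% lower was near the background and 12% in either direction was below it. At an unadjusted p under 0.05, edgeR gave 3 genes as higher (Cdk6, Ccnb2 and Cdkn3) and 10 as lower. Of the 50 genes, limma called 0 higher and DESeq2 called 1 (Ccnb2). The libraries of the groups did not overlap for 8 of the 50 genes (16.0%, 7 below and 1 above), against 21.8% of all genes tested.

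Few genes of either stage passed the test, beside 10.2% of all genes tested lower and 8.15% higher. Not passing does not show that a gene was unchanged. Of the 24 G1 genes 4 were lower (16.7%) and 15 had a log2 fold change below 0, with a median of -0.06. Of the 20 S/G2/M genes 2 were lower (10.0%) and 10 lay below 0, with a median of 0.004 that turned to -0.003 when libraries were scaled by total counts alone. The median over all genes tested was 0.0004. The mean log2(CPM + 1) of the S/G2/M genes exceeded that of the G1 genes by 0.23 to 0.29 in the new AML libraries, and by 0.43, 0.22, 0.24 and 0.39 in aggressive replicates 1 to 4. The groups overlapped in this difference, with aggressive replicates 1 and 4 above all new AML libraries and replicates 2 and 3 not.

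**Figure D2:**
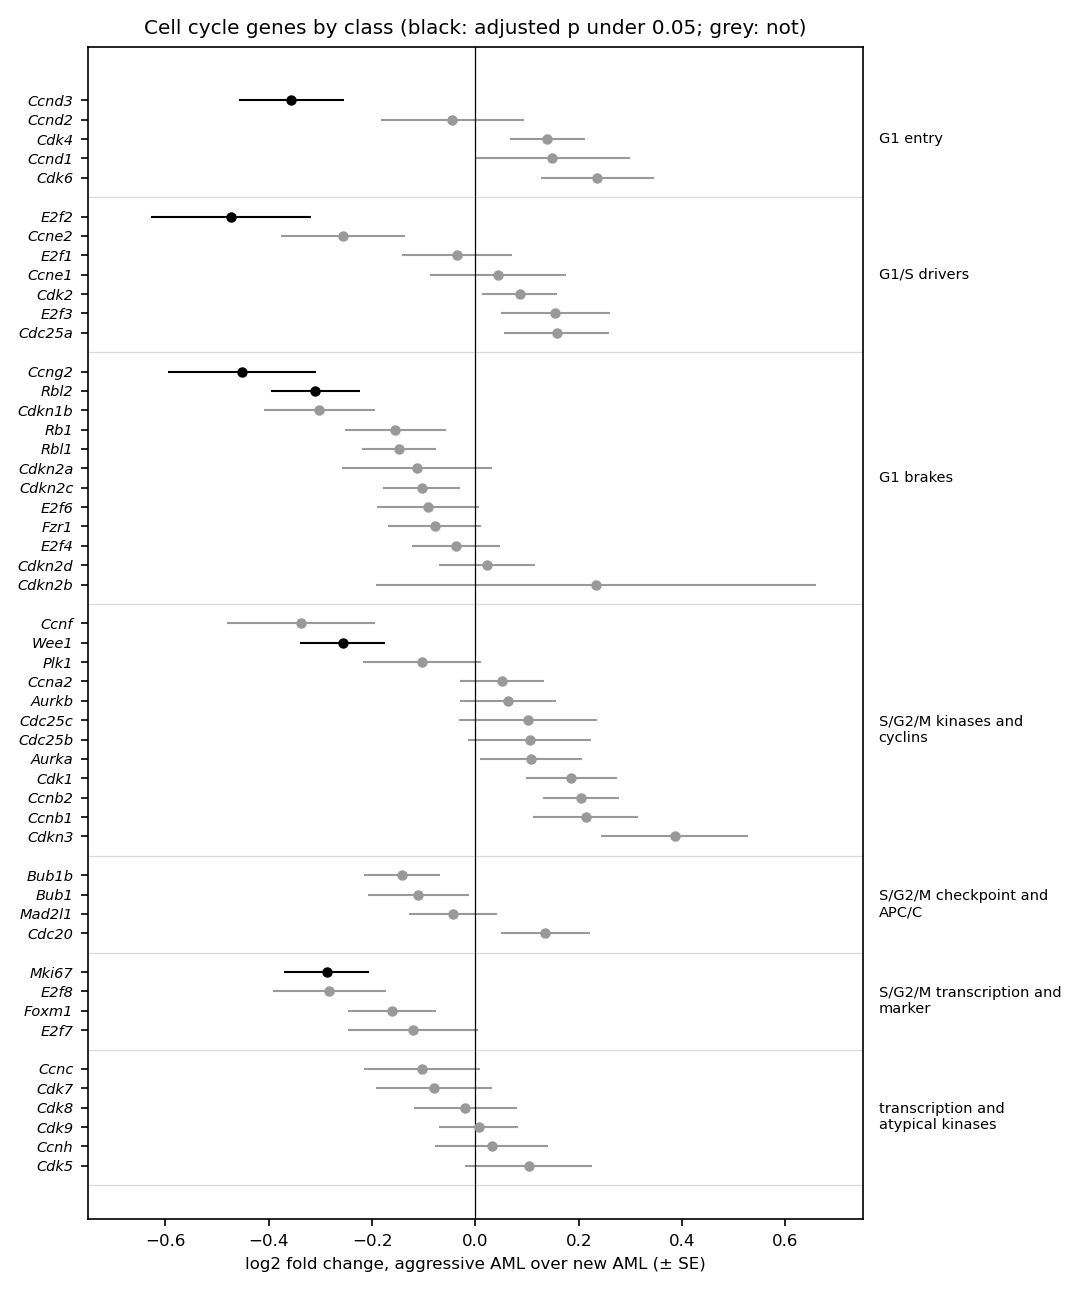
Log2 fold change of aggressive over new AML (x axis, points, with bars of 1 SE, n = 4 per group) for the 50 genes by class (y axis). Black marks the 6 genes with an adjusted p under 0.05, all below 0, and Cdkn2b has the longest bar (SE 0.43).

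Among the genes of G1 entry, cyclin D3 was lower and its sister cyclins and kinases did not pass the test. Ccnd3, a D cyclin on chr17:47505051-47599691 (mm10, plus strand), stood at 324.3, 312.5, 324.3 and 290.2 CPM in new AML replicates 1 to 4 and at 265.4, 260.4, 185.6 and 265.8 CPM in aggressive AML replicates 1 to 4. Every aggressive library lay below every new AML library, and aggressive replicate 3 lay farthest down. The log2 fold change of Ccnd3 was -0.36 (SE 0.10, adjusted p = 0.0239 in edgeR), and the call was lost without new AML replicate 1 or 2 (adjusted p = 0.0611 and 0.0596). Exons of Bysl, a gene on the opposite strand, cover 14.8% of the Ccnd3 exon length, and the annotation lists a Ccnd3 pseudogene, so some reads could be shared.

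Cyclin D1 (Ccnd1) was at 58.6 ± 7.18 CPM (SD, n = 4) in new AML and 65.1 ± 17.3 CPM in aggressive AML, with an adjusted p of 0.527 in edgeR. Its highest library, aggressive replicate 2, read 89.5 CPM, and without it the log2 fold change of 0.15 turned to -0.04. Exons of LTO1 on the opposite strand cover 29.4% of the Ccnd1 exon length. Cyclin D2 (Ccnd2) was at 78.6 ± 17.3 and 76.3 ± 10.2 CPM (adjusted p = 0.852). On a per-length scale (reads per kilobase of exon, scaled to the library total, RPKM), Ccnd3 made up most of the D cyclin RNA in both groups, 82.4% ± 1.69 (SD, n = 4) in new AML and 77.4% ± 4.75 in aggressive AML. The Ccnd1 share was 10.1% ± 1.02 and 13.6% ± 3.44, and the Ccnd2 share 7.49% ± 1.21 and 8.94% ± 1.59. Ccnd3 was the leading D cyclin by RNA in all 8 libraries, with its lowest share, 72.6%, in aggressive replicate 3.

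The kinases that bind D cyclins were abundant. Cdk4 was at 451.5 ± 21.5 CPM in new AML and 497.2 ± 36.8 CPM in aggressive AML (log2 fold change 0.14, SE 0.07, adjusted p = 0.201 in edgeR). Cdk6 was at 826.2 ± 49.0 and 972.9 ± 186.0 CPM (log2 fold change 0.24, SE 0.11, adjusted p = 0.147). The 4 aggressive libraries spread widely for Cdk6, at 779.4, 877.2, 1205 and 1030 CPM, and replicate 1 lay within the new AML range of 761.3 to 867.1 CPM. Of 16 other fits, Cdk6 passed as higher only in the one without aggressive replicate 1 (adjusted p = 0.0403 in edgeR), and without aggressive replicate 3 its log2 fold change was 0.12 (adjusted p = 0.402). Per length, Cdk4 held 75.4% ± 1.62 of the Cdk4 and Cdk6 RNA in new AML and 74.2% ± 4.30 in aggressive AML. Exons of Tspan31 on the opposite strand cover 31.2% of the Cdk4 exon length.

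Of the 7 G1/S drivers, which start DNA replication, E2f2 alone passed the test. E2f2, an activating E2F factor on chr4:136172394-136196057 (plus strand), read 65.3, 72.4, 71.3 and 70.5 CPM in new AML and 49.0, 71.4, 35.1 and 45.5 CPM in aggressive AML. Aggressive replicate 2 was at the level of the new AML libraries and the other aggressive libraries lay below them, so the groups overlapped. The log2 fold change of E2f2 was -0.47 (SE 0.15, adjusted p = 0.0455 in edgeR), and of the 8 fits that each left out a library it was called only in the one without aggressive replicate 2; the other 7 gave adjusted p of 0.0682 to 0.107. The sister factors E2f1 (89.8 ± 14.4 and 87.7 ± 6.17 CPM, adjusted p = 0.847) and E2f3 (45.7 ± 5.07 and 50.9 ± 4.44 CPM, adjusted p = 0.328) did not pass. Per length, E2f2 held 28.7% ± 3.49 of the RNA of these 3 activators in new AML and 21.8% ± 4.41 in aggressive AML.

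Cyclin E and its kinase, which push cells past the G1/S boundary, did not pass the test. Ccne1 was at 32.9 ± 4.45 CPM in new AML and 34.0 ± 5.62 CPM in aggressive AML (adjusted p = 0.849 in edgeR). Ccne2, 19.0% of whose exon length lies under exons of Ints8 on the opposite strand, was at 30.6 ± 2.31 and 25.6 ± 3.403 CPM (adjusted p = 0.151). Cdk2, the partner of both, was at 175.5 ± 7.23 and 186.3 ± 11.5 CPM (adjusted p = 0.439). Cdc25a, the phosphatase that activates CDK2 and whose promoter is printed above, was at 89.7 ± 8.38 and 99.96 ± 12.9 CPM (adjusted p = 0.307). Aggressive replicate 3 read 80.7 CPM for Cdc25a, and the other 3 read 104 to 108 CPM.

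The 12 G1 brakes, which hold cells before S phase, had 2 genes that were lower (16.7%). Of the 12, 10 had a log2 fold change below 0, with a median of -0.11. Among all genes tested 10.2% were lower and 6237 of 12494 had a log2 fold change below 0. The class was chosen with earlier results of these data known. Rbl2, which encodes the pocket protein p130 of resting cells (chr8:91070057-91123844, plus strand), read 94.9, 105.8, 94.8 and 116.8 CPM in new AML and 81.4, 87.6, 79.6 and 83.9 CPM in aggressive AML. Each aggressive library was below each new AML library, and the new AML libraries spread more. Its log2 fold change was -0.31 (SE 0.09, adjusted p = 0.0208 in edgeR), and the call was lost without new AML replicate 2 or 4 or aggressive replicate 1 (adjusted p = 0.0656, 0.0759 and 0.0549). Exons of Aktip and Gm45464, on the opposite strand, cover 16.8% of the Rbl2 exon length, and reads from them cannot be told apart where the counting ignored strand, which is not stated.

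Ccng2, an atypical cyclin that is known to slow the cycle (chr5:93267257-93276231, plus strand), read 53.7, 61.6, 49.2 and 63.4 CPM in new AML and 43.2, 28.6, 48.7 and 46.1 CPM in aggressive AML. The groups lay edge to edge, with new AML replicate 3 just above aggressive replicate 3. The log2 fold change of Ccng2 was -0.45 (SE 0.14, adjusted p = 0.0394 in edgeR). The call was lost without new AML replicate 1, 2 or 4 or aggressive replicate 1 or 2, with adjusted p of 0.061 to 0.114.

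The other pocket proteins, which bind and silence E2F factors, did not pass. Rbl1 (p107) was at 146.3 ± 6.48 CPM in new AML and 132.1 ± 5.30 CPM in aggressive AML, without overlap between the groups, at an adjusted p of 0.165 in edgeR. Rb1, the retinoblastoma gene itself, was at 49.7 ± 5.28 and 44.6 ± 1.44 CPM (adjusted p = 0.292). Per length, Rbl1 was the leading pocket protein RNA, with a share of 48.9% ± 3.36 in new AML and 50.7% ± 0.929 in aggressive AML, and Rbl2 held 33.9% ± 2.22 and 31.5% ± 0.75.

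Among CDK inhibitors, Cdkn1b (p27, which binds cyclin E and CDK2) was at 72.4 ± 10.6 CPM in new AML and 58.7 ± 4.95 CPM in aggressive AML (log2 fold change -0.30, SE 0.11, adjusted p = 0.064 in edgeR). Of 16 other fits it passed only in the one without new AML replicate 3 (adjusted p = 0.0261 in edgeR). The INK4 inhibitors, which bind CDK4 and CDK6, did not pass: Cdkn2c was at 309.3 ± 15.2 and 287.8 ± 22.6 CPM, Cdkn2d at 63.1 ± 4.78 and 64.1 ± 5.78 CPM, and Cdkn2a at 33.5 ± 7.10 and 30.9 ± 3.69 CPM. Per length, Cdkn2c led this family with 61.6% ± 3.04 of its RNA in new AML and 60.2% ± 2.48 in aggressive AML. Cdkn2a has promoter windows at different starts, and its count does not separate the transcripts, so its INK4 part is not known. Cdkn2b was close to absent, with 0.943 ± 0.431 and 1.11 ± 0.305 CPM, where 3 counts correspond to 0.308 to 0.389 CPM. E2f4, E2f6 and Fzr1, repressing E2F factors and an activator of the anaphase-promoting complex in G1, had log2 fold changes of -0.04, -0.09 and -0.08.

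**Figure D3:**
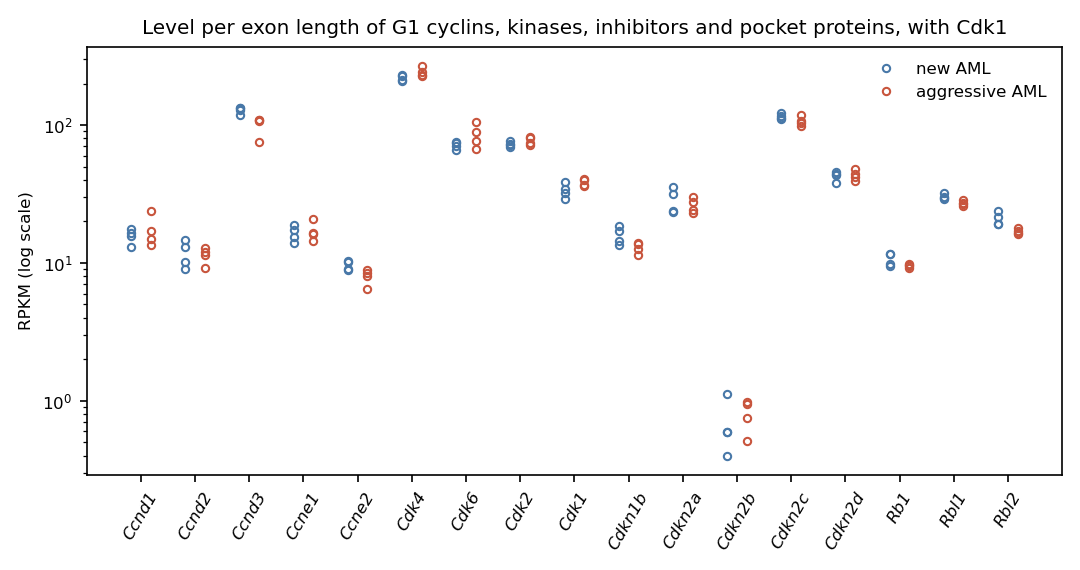
Level per exon length (y axis, RPKM, log scale) of G1 cyclins, kinases, inhibitors and pocket proteins, with Cdk1 (x axis), each circle a library (blue new AML, red aggressive AML, n = 4 each). Cdk4 was highest, at a mean of 219.9 RPKM in new AML and 242.2 RPKM in aggressive AML, and Cdkn2b lowest, at 0.678 and 0.798 RPKM.

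Per length, these RNAs in new AML included Cdk4 (219.9 ± 10.5 RPKM), Ccnd3 (127.8 ± 6.57), Cdkn2c (115.1 ± 5.66), Cdk2 (72.8 ± 3.00) and Cdk6 (71.7 ± 4.25), the 5 highest, and Rb1 (10.7 ± 1.14), Ccne2 (9.57 ± 0.722) and Cdkn2b (0.678 ± 0.31), the 3 lowest. Cdk2 and Cdk6 differed by less than their spread, as did Rb1 and Ccne2. In aggressive AML, Ccnd3 was at 99.8 ± 16.0 RPKM and Cdkn2c at 107.1 ± 8.41 RPKM, also within their spread. These levels rest on exon lengths of the annotation, not on the transcripts the cells used.

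Among the 12 S/G2/M kinases and cyclins, Wee1 was lower (8.33%), and 9 of the 12 had a log2 fold change above 0 without passing the test. Among all genes tested 10.2% were lower and 6257 of 12494 had a log2 fold change above 0. Wee1, the kinase that holds CDK1 inactive until mitosis (chr7:110122046-110143286, plus strand), read 86.9, 85.4, 84.6 and 78.6 CPM in new AML and 71.1, 69.9, 63.6 and 76.1 CPM in aggressive AML. All aggressive libraries were below all new AML libraries, by a narrow margin between the nearest pair. Its log2 fold change was -0.26 (SE 0.08, adjusted p = 0.0408 in edgeR), and the call remained without new AML replicate 4 or aggressive replicate 4 but was lost without any other library, with adjusted p of 0.0628 to 0.109.

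The mitotic kinase CDK1 and its cyclins did not pass. Cdk1, whose promoter is printed above, was at 150.4 ± 17.5 CPM in new AML and 171.0 ± 10.6 CPM in aggressive AML (log2 fold change 0.19, SE 0.09, adjusted p = 0.160 in edgeR). Ccnb1 was at 72.8 ± 11.2 and 84.4 ± 3.25 CPM (log2 fold change 0.21, SE 0.10, adjusted p = 0.158). Ccnb2 read 118 to 129 CPM in new AML and 129.7 to 145.0 CPM in aggressive AML, without overlap (log2 fold change 0.20, SE 0.07, adjusted p = 0.0658). Of 16 other fits, Cdk1 and Ccnb1 passed as higher only in the one without new AML replicate 3, with adjusted p of 0.04998 and 0.0335 in edgeR. Without new AML replicate 1 their log2 fold changes were 0.12 and 0.14, with adjusted p of 0.382 and 0.389. The annotation lists pseudogenes of Ccnb1 and Ccnb2, which could share reads with them.

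Ccna2, the cyclin of S phase and G2, was at 183.7 ± 17.9 CPM in new AML and 190.4 ± 10.1 CPM in aggressive AML (adjusted p = 0.698 in edgeR). Ccnf, a cyclin that is part of a ubiquitin ligase, was at 98.8 ± 3.09 and 78.0 ± 19.7 CPM, with aggressive replicate 3 at 49.8 CPM and no overlap (log2 fold change -0.34, SE 0.14, adjusted p = 0.112). Without that library the log2 fold change of Ccnf was -0.17. Cdkn3, a phosphatase that acts on CDKs, was at 16.4 ± 1.34 and 21.4 ± 3.59 CPM (log2 fold change 0.39, SE 0.14, adjusted p = 0.0718), which of 16 other fits passed only in the one without aggressive replicate 3 (adjusted p = 0.00908). Plk1, the polo-like kinase of mitosis, was at 116.0 ± 5.83 and 107.9 ± 20.3 CPM (adjusted p = 0.564). The Aurora kinases Aurka and Aurkb, which build the spindle and finish division, had log2 fold changes of 0.11 and 0.06, and the CDK1-activating phosphatases Cdc25b and Cdc25c of 0.11 and 0.10.

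The 4 genes of the spindle checkpoint and anaphase-promoting complex had 0 calls, and edgeR gave 0 of them an unadjusted p under 0.05, as limma and DESeq2 called 0. Bub1b, a checkpoint kinase-like protein, was at 225.3 ± 14.1 CPM in new AML and 204.1 ± 10.9 CPM in aggressive AML (adjusted p = 0.196 in edgeR). Bub1 and Mad2l1, which act in the same checkpoint, had log2 fold changes of -0.11 and -0.04, and Cdc20, the mitotic activator of the complex, of 0.14.

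The 4 genes of S/G2/M transcription and the proliferation marker all had log2 fold changes below 0, with a median of -0.22. Of all genes tested, 6237 of 12494 lay below 0. Mki67 alone of the 4 passed the test (25.0%, beside 10.2% of all genes lower). Mki67 (Ki-67, chr7:135689784-135716361, minus strand), the standard marker of cycling cells, read 820.6, 872.2, 806.6 and 906.0 CPM in new AML and 747.9, 653.4, 611.6 and 776.4 CPM in aggressive AML. The groups did not overlap, with 806.6 CPM the lowest of new AML and 776.4 CPM the highest of aggressive AML. The log2 fold change of Mki67 was -0.29 (SE 0.08, adjusted p = 0.0247 in edgeR). The call was lost without new AML replicate 2 or 4 or aggressive replicate 2 or 3, with adjusted p of 0.0641 to 0.0788. The Mki67 promoter, printed above, holds the same 2 kinds of motif as that of Cdk1, whose log2 fold change of 0.19 did not pass the test. Both kinds stood in 10 of the 15 S/G2/M windows, and a relation between motifs and fold changes was not tested.

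E2f8, an E2F factor that represses E2F targets late in S phase, was at 147.4 ± 22.4 CPM in new AML and 121.3 ± 13.9 CPM in aggressive AML (log2 fold change -0.28, SE 0.11, adjusted p = 0.0851 in edgeR). Of 16 other fits it passed in those without new AML replicate 4 and without aggressive replicate 3 (adjusted p = 0.02995 and 0.0321 in edgeR). E2f7, its close relative, had a log2 fold change of -0.12. Foxm1, the factor that switches on G2/M genes, was at 96.2 ± 6.95 and 86.0 ± 6.60 CPM (adjusted p = 0.203).

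**Figure D4:**
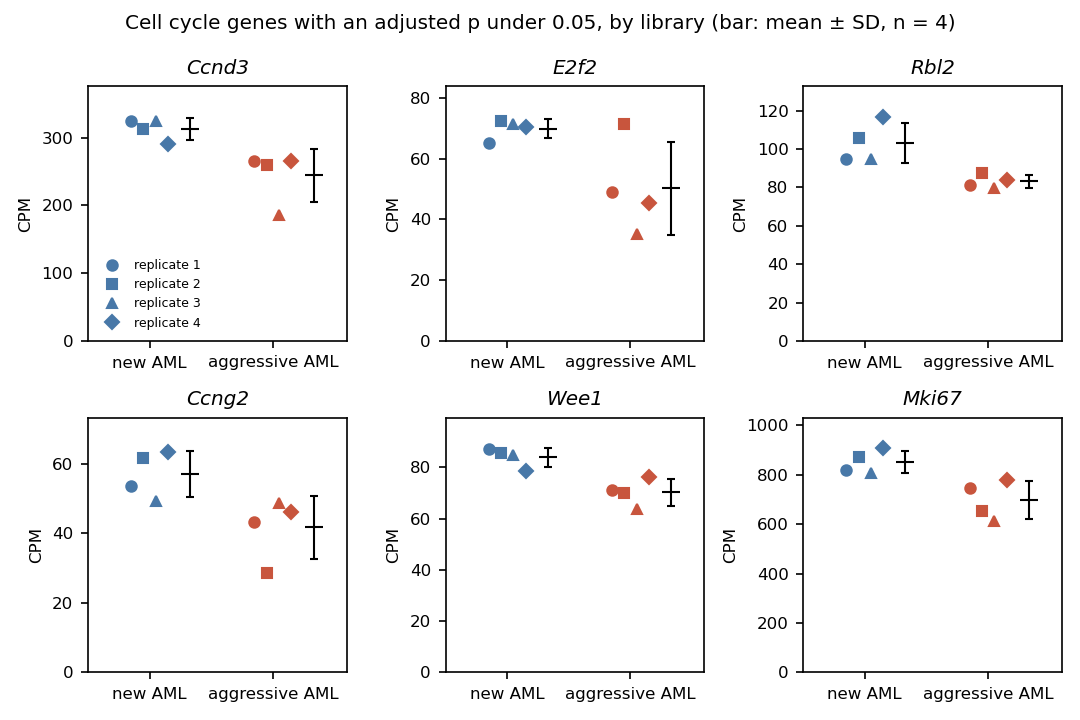
CPM (y axis, from 0) of the 6 genes with an adjusted p under 0.05, by group (x axis), each symbol a library and the bars mean ± SD (n = 4). The groups were apart in all but E2f2, where aggressive replicate 2 (71.4 CPM) lay among the new AML libraries.

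By class, the mean log2(CPM + 1) of the G1 brakes was 5.91 to 6.03 in the new AML libraries and 5.79 to 5.87 in the aggressive AML libraries. That of the 4 genes of S/G2/M transcription and marker was 6.94 to 7.21 and 6.78 to 6.91. These classes were the ones of the 7 whose groups did not overlap. The classes were chosen with earlier results of these data known, so this describes them and is not a test. Gene by gene, the groups did not overlap for 16.0% of the 50 genes and 21.8% of all genes tested. The S/G2/M kinases and cyclins had 6.29 to 6.41 in new AML and 6.49, 6.34, 6.21 and 6.48 in aggressive replicates 1 to 4, and G1 entry had 7.69 to 7.90 and 7.68 to 7.93. Aggressive replicate 3 was the lowest of its group for 19 of the 50 genes and the highest for 14. New AML replicate 4 was also the lowest of its group for 19, and the highest for 7.

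**Figure D5:**
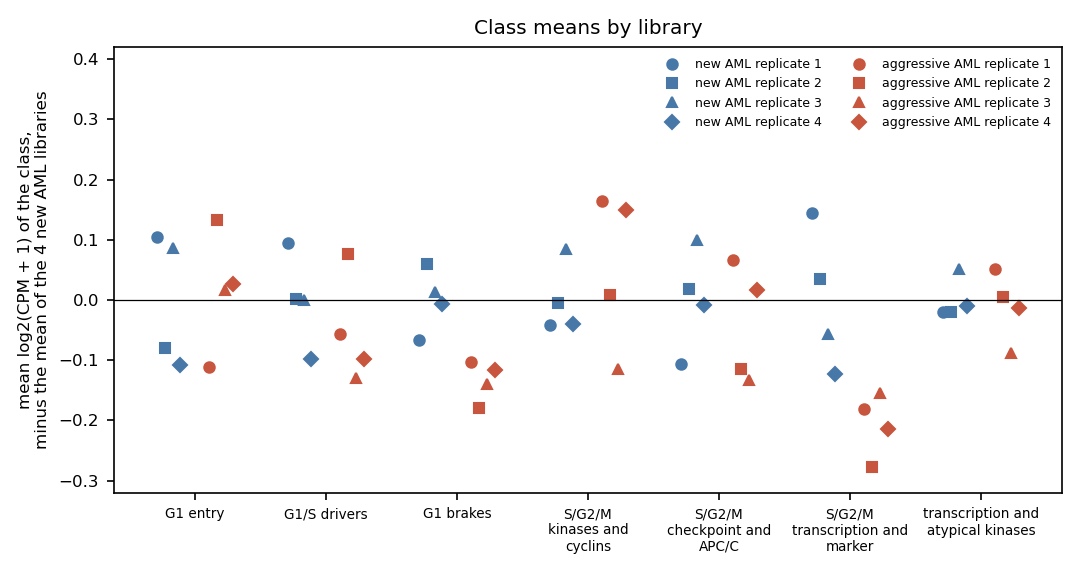
Mean log2(CPM + 1) of the genes of each class (x axis) in each library, minus the mean of the 4 new AML libraries (y axis, log2 units); blue symbols are new AML and red symbols aggressive AML libraries. The groups are apart for the G1 brakes (5.91 to 6.03 against 5.79 to 5.87 before subtraction) and for S/G2/M transcription and marker. The classes were chosen with earlier results of these data known.

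The 6 kinases and cyclins with other roles had 0 calls, 0 with an unadjusted p under 0.05 in edgeR, and 0 calls by limma and DESeq2. Cdk7 and Ccnh, of the CDK-activating kinase, had log2 fold changes of -0.08 and 0.03. Cdk8 and Ccnc, of the Mediator kinase module, had -0.02 and -0.10. Cdk9, which releases paused RNA polymerase, was at 154.2 ± 4.81 CPM in new AML and 154.9 ± 12.02 CPM in aggressive AML, and Cdk5, an atypical kinase, had 0.10.

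Other genes of the same control system, were counted on lists that shared no gene with the 50. Of 23 other G1 control genes 1 was higher and 4 were lower (21.7% called), with a median log2 fold change of -0.03. The lower ones included Cul1 and Skp2, parts of the ubiquitin ligase that degrades p27. Cul1 read 139.1 to 156.8 CPM in new AML and 97.97 to 122.8 CPM in aggressive AML (log2 fold change -0.48, SE 0.09, adjusted p = 0.0016 in edgeR). Skp2 read 41.1 to 48.5 CPM and 28.5 to 40.2 CPM (log2 fold change -0.35, SE 0.11, adjusted p = 0.0428). Skp2 was lost in every fit without 1 library except the one without aggressive replicate 4, with adjusted p of 0.0522 to 0.121. The others were Ccng1, the sister of Ccng2 (-0.38), and Cables1 (-1.45, from 2.24 to 0.805 CPM), and Cdkn2aip was higher (0.39).

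Of 34 other S phase genes 3 were higher and 0 were lower (2 at an unadjusted p under 0.05 in edgeR, 1 called by limma and 2 by DESeq2), with a median of 0.04. The higher ones were Tk1, thymidine kinase (log2 fold change 0.32), Gmnn, which blocks a repeat of replication (0.28), and Chaf1b, a histone chaperone (0.36). Of 55 other G2/M genes 2 were higher, the centromere histone Cenpa (0.33) and the centrosome kinase Nek2 (0.32), and 1 was lower, the spindle protein Psrc1 (-0.45), with a median of -0.05. The 7 genes of the MuvB and B-Myb complex had 0 calls in edgeR (1 higher at an unadjusted p under 0.05), and limma and DESeq2 each called 1 higher. Of these other genes, Cul1, Tk1 and Cenpa kept their call in all 16 other fits, and the rest lost it in at least 1 fit without a library. The share called was 21.7% for other G1 control, 8.82% for other S phase and 5.45% for other G2/M genes, beside 18.4% of all genes tested.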

How the data were processed

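RNA from GFP-positive MLL-AF9 leukemia cells was sequenced in 8 libraries, 4 per group, grouped by the sample labels. The authors purified polyadenylated RNA, aligned paired-end reads to mm10 with HISAT2 and deposited a table of counts per gene that is named for CPM but holds integers whose totals differ between libraries, used here as counts. The gene annotation and strand setting of the counting were not given in the sources used here. Genes that reached 1 CPM in 4 or more libraries were tested (12494 of 12823 rows, all 50 cell cycle genes among them) with edgeR's quasi-likelihood test (version 4.0.16, R 4.3.3), TMM scaling, group as the only term and two-sided p-values with Benjamini-Hochberg adjustment. The table has 0 rows without a name, 1 repeated name and 19 names turned into dates. CPM values use TMM-scaled library sizes, and RPKM divides them by the exon length of coding transcripts (GENCODE vM21). Standard errors came from the fold change and its F statistic. The fit was tested on simulated counts. Alternatives were limma (3.58.1) on log2(CPM + 1), DESeq2 (1.42.0), other scalings and filters, a replicate block, and each library left out. The genes, classes and lists were chosen with earlier results of these data known. The text gives per-library values for genes past the threshold, and class values, partners and the best-known regulators for the rest; of the other lists it names those past the threshold, at most 5 each.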

Additional observations from a re-analysis of the deposited data

Results flagged for a closer look

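In 6 of the 100 groups of 4 libraries (50 genes, 2 groups each), 1 library stood apart from the other 3 by Dixon's test at the 95% level, where chance gives about 5. In aggressive replicate 3, 3 genes were low: Ccnd3 at 186 CPM, with the other libraries at 260 to 266 CPM, Cdc25a at 80.7 CPM against 104 to 108 CPM, and Cdk7 at 35.2 CPM against 43.6 to 45.3 CPM. In new AML, Ccnb2 was high in replicate 4 at 129 CPM against 118 to 119 CPM, Cdk5 was low in replicate 1 at 27.6 CPM against 35.8 to 36.7 CPM, and E2f6 was low in replicate 3 at 68.8 CPM against 73.0 to 73.8 CPM. Without aggressive replicate 3, 4 of the 50 genes were lower and 1 higher, and Ccnd3 was still called lower.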

How the results depend on the processing

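The calls were few and sensitive to single libraries. The number of cell cycle genes called lower, 6, ranged from 0 to 5 when 1 library was left out, with 0 without new AML replicate 2, 2 without new AML replicate 1 or aggressive replicate 1, and 3 without new AML replicate 4 or aggressive replicate 2. In the same fits the number called higher ranged from 0 to 2, with 2 without new AML replicate 3 (Ccnb1 and Cdk1) and 1 without aggressive replicate 1 (Cdk6) or aggressive replicate 3 (Cdkn3), and all genes called ranged from 1466 (without new AML replicate 2) to 2324, against 2296. Of the fits without 1 library, Ccnd3 was called in 6 of 8, Rbl2 in 5, Mki67 in 4, Ccng2 in 3, Wee1 in 2 and E2f2 in 1. Over all 16 alternatives the adjusted p ran from 0.00985 to 0.0611 for Ccnd3, 0.00942 to 0.0759 for Rbl2, 0.00897 to 0.0788 for Mki67, 0.0195 to 0.114 for Ccng2, 0.00146 to 0.107 for E2f2 and 0.0291 to 0.109 for Wee1, and these 6 kept their direction in all of them.

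Ccnb2 passed as higher with DESeq2 and with a minimum of 5 CPM, which gives 1 gene called higher in each. Upper-quartile scaling and the 5 CPM minimum each left 4 genes lower. The median of the G1 genes lay between -0.10 and -0.04 and that of the S/G2/M genes between -0.03 and 0.04. Some genes that did not pass the test changed sign. Cdk9 had a log2 fold change of -0.0023 with total counts and -0.0039 with limma. When 1 library was left out, log2 fold changes ran from -0.022 to 0.066 for Cdk9, -0.15 to 0.078 for Ccnd2, -0.031 to 0.078 for Cdkn2d, -0.11 to 0.075 for E2f1, -0.18 to 0.00062 for E2f7, -0.069 to 0.12 for Ccne1 and -0.024 to 0.10 for Ccnh. They ran from -0.062 to 0.051 for Cdk8, -0.20 to 0.0084 for Cdkn2a, -0.0938 to 0.011 for E2f4, -0.098 to 0.025 for Mad2l1, -0.0070 to 0.12 for Aurkb, -0.043 to 0.26 for Ccnd1 and -0.18 to 0.015 for Plk1. The cause of these changes was not tested.

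Both groups carry replicate numbers 1 to 4, and deviations from the group means of same-numbered libraries correlated at 0.0967, -0.0399, -0.0654 and 0.204. New AML replicates 1 and 4 correlated best with the aggressive library of the same number. New AML replicate 2 correlated best with aggressive replicate 4 (0.0864) and replicate 3 with aggressive replicate 1 (0.147). With 4 libraries per group, these values cannot settle whether the numbers pair the libraries. With the replicate number as a block, 2367 genes were called and 5 cell cycle genes were lower, without Wee1 (adjusted p = 0.0582). Depth ran from 7805544 counts in aggressive replicate 3 to 9697777 in new AML replicate 1, and 3 counts correspond to 0.308 to 0.389 CPM.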

Other observations

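Myc, a transcription factor that drives entry into the cycle, was singled out after its values were seen. It read 215.6, 218.6, 197.8 and 184.8 CPM in new AML and 131.1, 175.6, 51.6 and 174.0 CPM in aggressive AML. Every aggressive library lay below every new AML library, and aggressive replicate 3 lay far below the rest. The log2 fold change of Myc was -0.62 (SE 0.24), and its adjusted p of 0.0937 in edgeR did not pass the threshold. Without aggressive replicate 3 the log2 fold change was -0.35, with an adjusted p of 0.0297 in edgeR, and with the replicate number as a block it was -0.73 (adjusted p = 0.0349). The other 14 fits did not pass.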
